A study of Mus musculus with 6 samples.

Results

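The mRNAs of the cytosolic ribosomal proteins were followed in cardiomyocytes of mice given doxorubicin. Members were the rows of the deposited table whose gene symbol was Rpl or Rps followed by digits and then nothing, a, x or al, together with Rplp0, Rplp1, Rplp2 and Rpsa. Pseudogene rows and the ribosomal S6 kinases were left out. The rule found 77 members among 24972 rows, of which 30 encode proteins of the small (40S) subunit and 47 encode proteins of the large (60S) subunit. RNA came from 6 MX1gfp mice, a strain carrying a green fluorescent protein reporter at the interferon-induced gene Mx1, and both groups carried this allele. Of these, 3 mice were injected intraperitoneally with the vehicle, PBS, and 3 with 1 dose of doxorubicin at 25 mg/kg dissolved in it. Hearts were perfused and digested 48 h after injection, and the ventricular myocytes were enriched by settling under gravity, without a sort. The labels state no age or sex.

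The cytosolic ribosome translates all mRNAs made in the nucleus, and each of its proteins is present in at most a few copies per particle, so cells make them in near equal amounts. Their mRNAs start with a C followed by a run of pyrimidines, the terminal oligopyrimidine (TOP) element, through which the kinase mTORC1 and the RNA-binding protein Larp1 control translation and mRNA stability. Striated muscle is unusual in that it also expresses muscle forms of some components of this machinery, among them Rpl3l in place of Rpl3 and Eef1a2 in place of Eef1a1. Doxorubicin, an anthracycline cancer drug, intercalates into DNA, poisons type II topoisomerases and damages the heart.

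The deposited unit is the normalized read count of a gene. Library totals were 7217949 to 7500386 for vehicle and 5410780 to 6498373 for doxorubicin. The smallest steps between low values put the depth of vehicle libraries at about 7710000 to 11400000 reads, and that of doxorubicin libraries at 3670000 to 6170000. The doxorubicin libraries were not alike. The median log2 difference of 13 cardiomyocyte marker genes from the vehicle mean was -0.42, -1.87 and -2.00 in doxorubicin replicates 1 to 3, and replicate 1 also held the highest summed levels of the atrial and erythroid markers (1426 and 9027, against at most 692 and 2104 in the other libraries). Xist, expressed from the inactive X chromosome, was between 1558 and 2093 in vehicle replicate 3 and doxorubicin replicates 1 and 3, and Y-linked transcripts were present in the other libraries, so that doxorubicin replicate 2 was the only doxorubicin library with Y-linked transcripts. Summed cardiomyocyte markers were 770160 to 935240 in the vehicle group and 200300 to 693330 in the doxorubicin group, and the lowest value of any of them in any library was 2441 (Ryr2). Markers of other cells were also present. Summed levels of 10 macrophage markers were 1834 to 1989 in the vehicle group and 2820 to 8710.5 in the doxorubicin group. The 10 endothelial markers summed to 20572 to 28846 and to 38270 to 55391, and the 10 fibroblast markers to 14166 to 17421 and to 20527 to 54520, in the same order of groups. These 3 lists had higher sums in every doxorubicin library. By single genes, 8 macrophage, 7 endothelial and 4 fibroblast markers were higher in every doxorubicin library, and the rest overlapped between the groups. The fibroblast sum rested mostly on Gsn and Dcn, at 31666 and 18072 in doxorubicin replicate 2, whereas Col3a1 had a log2 difference of -0.42. The 6 neutrophil markers, at low values, also had higher sums in every doxorubicin library, 55.0, 563 and 419 in replicates 1 to 3 against 10.5 to 21.7 after vehicle. Mural markers overlapped, at 9763 to 14504 after vehicle and 11210 to 13253 after doxorubicin. The erythroid and lymphocyte sums were above the vehicle range in doxorubicin replicate 1 and below it in replicates 2 and 3. Of the 8 lymphocyte markers only 1 reached a mean of 10, so that list lies near the floor. In such bulk RNA, fewer cells of a type and less RNA per cell cannot be told apart, and the part that the cell makeup has in the results that follow was not tested except where a value is given.

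On the deposited scale the ribosomal protein mRNAs as a family had a median difference between the groups near 0, like that of all genes, and 1 doxorubicin library differed from the other doxorubicin libraries by more than the groups differed. Of the 77 members, 76 passed the minimum mean of 10 and were tested. Their median log2 difference (doxorubicin minus vehicle, after adding 1 to each value) was -0.006, and it was -0.005 over all 12477 genes tested. Over the 4364 genes with a mean of at least 300 the median was -0.15, and over the 73 members among them it was -0.005. The family's median thus stood above that of this group, which was not matched to the members' level beyond that minimum. Against the vehicle mean, these 73 members had medians of -0.163, 0.322 and -0.156 in doxorubicin replicates 1 to 3. The 4364 genes had -0.115, -0.099 and -0.244. The family was thus below the group in replicate 1, and above it mostly in replicate 2. With libraries scaled to equal totals the medians of members and of all genes were 0.30 and 0.29, and with quantile normalization they were 0.19 and -0.02, so that the family stood level with all genes tested under the first and above them under the second. Differences of single members ranged from -0.66 for Rpl26 to 0.68 for Rpl3, with 37 positive and 39 negative. With limma and Benjamini-Hochberg adjustment, 0 of the 76 members passed an adjusted p of 0.05, and 0 of all genes tested did so (0%), the smallest adjusted p being 0.0859. At an unadjusted p under 0.05 stood 1 member, Rpl3, against 4485 genes or 35.9% of all genes tested. Rpl3 was also the only member with an adjusted p under 0.10, a mark that 24.2% of all genes tested reached. The members' share of genes past either mark was thus far below that of the whole table.

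The 3 doxorubicin libraries placed the family differently. Against the vehicle mean, the members' median log2 difference was -0.16 in doxorubicin replicate 1, with 5 of 76 members above 0. In replicate 2 the median was 0.32, with 69 of 76 members above 0. In replicate 3 it was -0.18, with 12 of 76 above 0. The vehicle libraries lay at 0.13, -0.04 and -0.09 in replicates 1 to 3. Doxorubicin replicate 2 therefore stood above all 3 vehicle libraries, and the other two doxorubicin libraries below them. Replicate 2 held the highest of all 6 values for 62 of the 76 members (81.6%), as it did for 19.7% of all genes tested. The summed values of the 77 members were 175616, 156788 and 151333 in the vehicle libraries and 143184, 198544 and 137580 in the doxorubicin libraries, in the order of the replicates. As a share of the library total these sums were 2.43%, 2.12% and 2.02% after vehicle and 2.20%, 3.27% and 2.54% after doxorubicin. Sums and shares of the groups overlapped. Without doxorubicin replicate 1 the members' median was 0.06, without replicate 2 it was -0.17, and without replicate 3 it was 0.10, so that the sign of the family's median followed which library was left out. Within the libraries with Y-linked transcripts (2 vehicle, 1 doxorubicin) the members had a median of 0.29, and within those with Xist (1 vehicle, 2 doxorubicin) one of -0.10. A fit with this class as a term gave a median of 0.09 and called 0 members.

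**Figure D1:**
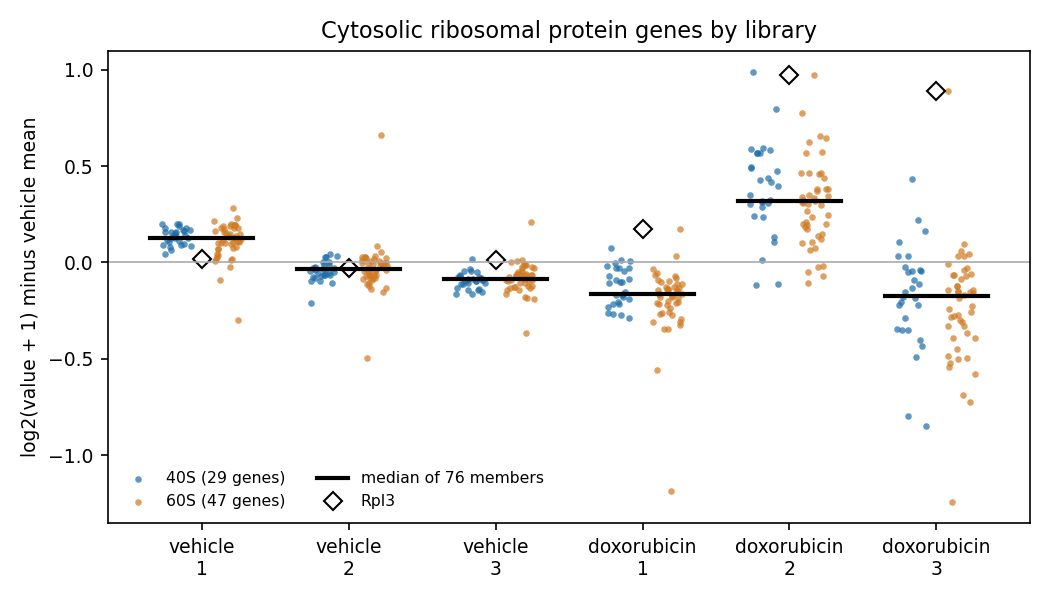
Log2(value + 1) of each of the 76 tested members minus its vehicle mean (y axis) in each of the 6 libraries (x axis), with 40S members in blue, 60S members in orange, a bar at the median of all 76 and an open diamond for Rpl3. The medians lie at -0.16, 0.32 and -0.18 in doxorubicin replicates 1 to 3, and Rpl3 lies above the bar in each of these libraries.

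Within a library the members stayed close together. The SD of their log2 differences from the vehicle mean was 0.16, 0.23 and 0.29 on the log2 scale in doxorubicin replicates 1 to 3. Among the 73 members with a mean of at least 300 it was 0.10, 0.23 and 0.26, and among all 4364 genes of that level it was 0.36, 0.87 and 1.00. The spread from gene to gene was thus smaller in the family than among all genes above this level in each doxorubicin library, a description with no test. Between mice the members varied more after doxorubicin: the SD was a median of 8.84% of the mean in the vehicle group and 22.3% in the doxorubicin group, and it was larger in the doxorubicin group for 74 of 77 members. This count was not made for all genes, so it cannot be read as a trait of the family. Over all genes tested, the gene-to-gene SD of differences from the vehicle mean was 0.441, 0.979 and 1.13 in doxorubicin replicates 1 to 3. In the vehicle libraries it was 0.241 to 0.268.

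The subunits were close, with 40S slightly above 60S. The 29 tested 40S members had a median difference of 0.016, and their medians in doxorubicin replicates 1 to 3 were -0.11, 0.40 and -0.15. The 47 members of the 60S subunit had a median of -0.034, with -0.17, 0.31 and -0.18 in the same libraries. The 40S median exceeded the 60S median by 0.059, 0.090 and 0.028 in doxorubicin replicates 1 to 3, whereas the gaps in the vehicle libraries were 0.018, -0.013 and -0.018. The gaps of the groups did not overlap, and they were small beside the shift of both subunits from library to library. Of the 76 tested members, 1 was higher in every doxorubicin library than in any vehicle library (Rpl3; 19.2% of all genes tested were), 3 were lower in every doxorubicin library (Rpl23a, Rpl36al and Rpsa; 22.6% of all genes tested were) and 72 overlapped between the groups. Without doxorubicin replicate 2, the number lower in every doxorubicin library was 43 and the number higher was still 1. With equal totals or quantile normalization 0 members were lower in every doxorubicin library and 11 and 10 were higher. The shares of all genes given above are for the deposited values of all 6 libraries and do not apply to these alternatives. Leaving out a library makes it easier for the groups of any gene not to overlap.

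**Figure D2:**
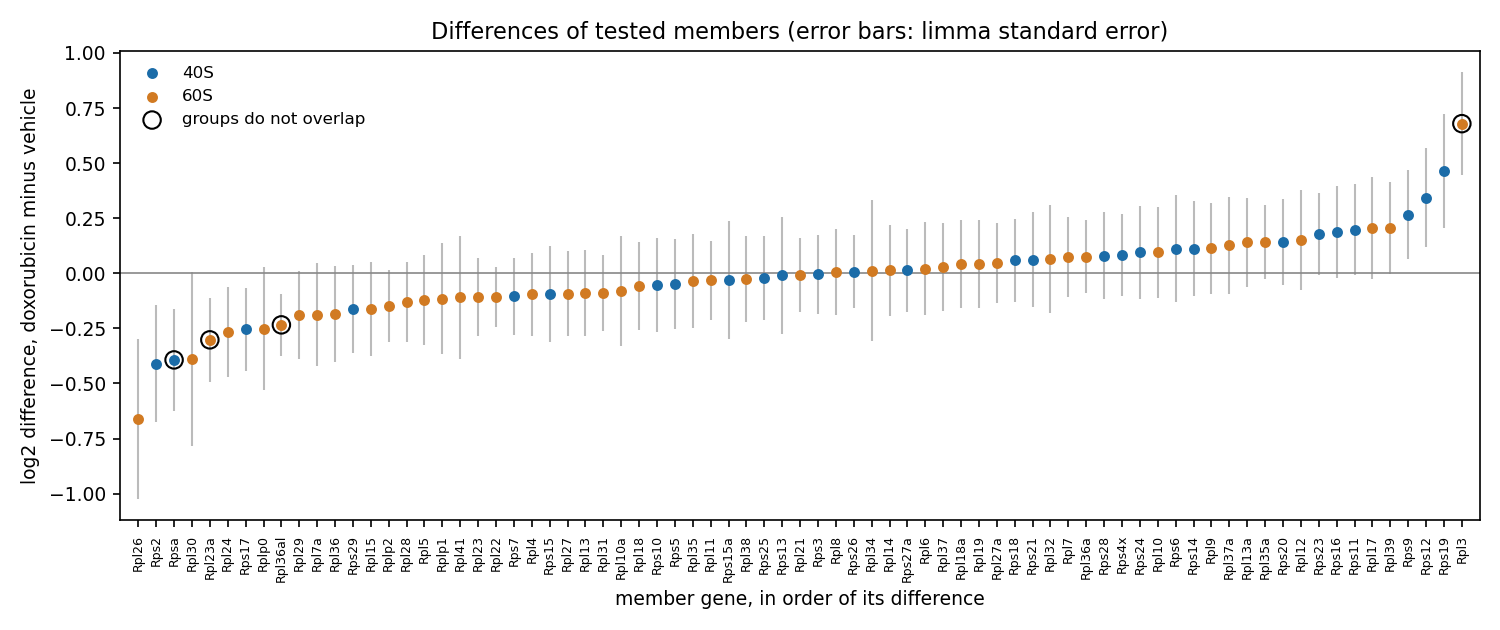
Log2 difference, doxorubicin minus vehicle, of 75 of the 76 tested members in order of its size (x axis: gene; y axis: log2 difference), with limma standard errors as bars and rings around the 4 members whose groups do not overlap. Most members lie within 0.25 of 0, and Rpl3 and Rpl26 stand at the ends.

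Rpl3, a 60S protein that reaches towards the peptidyl transferase centre, was the member with the most positive difference. Normalized counts were 1415, 1367 and 1407 after vehicle and 1573, 2743 and 2590 after doxorubicin. All 3 doxorubicin values lay above all 3 vehicle values, by little in replicate 1. Its log2 difference was 0.68 (SE 0.23), with an unadjusted p of 0.0209 and an adjusted p of 0.0947 by limma. Leaving out single libraries put this difference between 0.53 and 0.93. Without doxorubicin replicate 1 the adjusted p was 0.00217, under which condition 41.1% of all genes tested passed 0.05, and with libraries weighted by their spread it was 0.0076, where 34.2% of all genes did. The difference of Rpl3 was 0.98 among the Y-linked class of libraries and 0.52 among the Xist class, positive in both.

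Rpl3l, the muscle paralogue of Rpl3 and no member by the rule, differed the other way. Its values were 2422, 2231 and 2103 after vehicle and 1629, 1235 and 666 after doxorubicin. Every doxorubicin value was below every vehicle value, with a log2 difference of -1.03 (SE 0.31, adjusted p 0.0859 by limma). Counted per kilobase of coding sequence, Rpl3 made up 37.1%, 38.2% and 40.3% of the Rpl3 and Rpl3l signal in the vehicle libraries and 49.4%, 69.2% and 79.7% in the doxorubicin libraries. The groups did not overlap in this share, and an exact permutation test of 3 against 3 libraries cannot give a two-sided p below 0.10. The sum of both genes per kilobase of coding sequence was 2992 ± 139 after vehicle and 2861 ± 357 after doxorubicin (SD, n = 3), a difference within the spread between libraries. The ratio therefore differed while the sum overlapped, and the library with the smallest shift in the ratio, replicate 1, was also the one with the smallest difference in cardiomyocyte markers. How much of the ratio comes from the cells present in each library was not tested.

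Rpl3 lies on chromosome 15 at 80077781 to 80083406 and Rpl3l on chromosome 17 at 24727826 to 24736143 (GRCm38). Their coding sequences agreed at 74.4% of 1209 aligned bases, and 0% of the 31-base stretches of the Rpl3 coding sequence occurred in that of Rpl3l, so that reads of this length separate them. The first 60 coding bases of each are shown because this region distinguishes the pair at 13 positions, which are in capitals.
Rpl3: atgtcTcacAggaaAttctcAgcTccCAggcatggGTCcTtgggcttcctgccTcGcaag
Rpl3l: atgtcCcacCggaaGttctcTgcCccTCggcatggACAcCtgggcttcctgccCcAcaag

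The elongation factor eEF1A, which brings aminoacyl-tRNA to the ribosome, has a widely expressed form (Eef1a1, a TOP mRNA) and a form of muscle and neurons (Eef1a2). Eef1a1 measured 8202, 7233 and 6560 after vehicle and 10945, 21911 and 18868 after doxorubicin. Eef1a2 measured 11076, 9731 and 10968 after vehicle and 7475, 7292 and 3405 after doxorubicin. As with Rpl3 and Rpl3l, neither gene's groups overlapped, in opposite directions (log2 differences of 1.18 and -0.89, adjusted p 0.0859 and 0.116 by limma). Eef1a1 made up 42.6%, 42.7% and 37.5% of the pair per kilobase of coding sequence after vehicle and 59.5%, 75.1% and 84.7% after doxorubicin. Unlike that of Rpl3 and Rpl3l, the mean sum of this pair per kilobase of coding sequence was higher after doxorubicin, 16764 ± 3933 against 12888 ± 868 (SD, n = 3), though the groups overlapped.

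**Figure D3:**
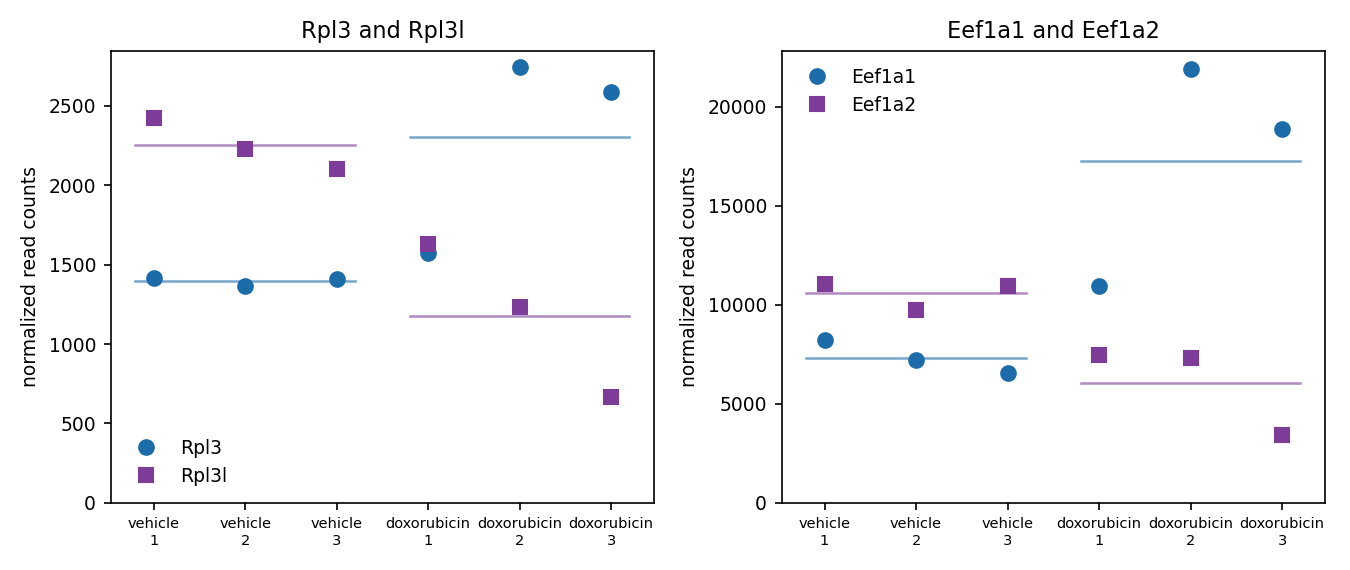
Normalized read counts (y axis, from 0) of Rpl3 with Rpl3l and of Eef1a1 with Eef1a2 in each of the 6 libraries (x axis), with a line at each gene's group mean. In both panels the muscle form lies above the other in all 3 vehicle libraries and below it in doxorubicin replicates 2 and 3.

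The next most positive members were of the 40S subunit. Rps19, which the maturing small subunit needs and which is mutated in Diamond-Blackfan anaemia, measured 1467, 1304 and 1228 after vehicle and 1311, 2636 and 1794 after doxorubicin. Its doxorubicin replicate 1 lay within the vehicle range and the other two lay above it. The log2 difference was 0.47 (SE 0.26, adjusted p 0.225 by limma); without doxorubicin replicate 1 it was 0.71 with an adjusted p of 0.0235, and with libraries weighted by their spread the adjusted p was 0.026. Without doxorubicin replicate 2 it was 0.21 with an adjusted p of 0.496. Rps12 (0.34) and Rps9 (0.26), both 40S proteins, and Rpl39 (0.21), a small protein that lines the exit tunnel, followed with adjusted p between 0.295 and 0.50. In all 4 genes doxorubicin replicate 2 was the highest of the 6 libraries. Without that library the differences were 0.12 for Rps12, 0.11 for Rps9 and -0.02 for Rpl39.

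Rpsa, a 40S protein also known as the laminin receptor, was among the 3 members lower in every doxorubicin library. It measured 4869, 4429 and 4440 after vehicle and 3808, 4215 and 2635 after doxorubicin. The nearest values of the groups were 4215 and 4429, and the log2 difference was -0.39 (SE 0.23, adjusted p 0.248 by limma), and -0.09 with equal totals. Rpl23a, at the mouth of the exit tunnel where chaperones and the signal recognition particle dock, measured 4404, 4053 and 3868 after vehicle and 3307, 3810 and 2926 after doxorubicin, with a log2 difference of -0.30 (adjusted p 0.28), which was 0.09 with quantile normalization. Its replicate 2 after doxorubicin lay just under the lowest vehicle value. Rpl36al, an autosomal copy of the X-linked Rpl36a, measured 526, 505 and 502 after vehicle and 402, 494 and 412 after doxorubicin, with a log2 difference of -0.23 (adjusted p 0.259), which was 0.07 with equal totals. Rpl36a itself overlapped between groups at 690, 629 and 616 against 583, 814 and 658, with a log2 difference of 0.07, and -0.06 without doxorubicin replicate 2. These 3 were also among the 5 members that stayed furthest below the vehicle mean in doxorubicin replicate 2, together with Rps2 and Rpl26.

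Rps2, at the mRNA entry channel of the 40S subunit, had the highest mean value of all members. It measured 8305, 6916 and 6577 after vehicle and 5991, 6699 and 4016 after doxorubicin, which overlap, with a log2 difference of -0.41 (SE 0.27, adjusted p 0.292), which was 0.05 with quantile normalization. Per kilobase of coding sequence the highest vehicle means were those of Rpl41 (38450), Rps29 (13991) and Rpl23a (8723). Rpl3 was among the lowest at 1152, beneath all members but the 4 described next.

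Those 4 members had vehicle means below 300 and far below the rest of the family per kilobase of coding sequence: Rps27 (26.1), Rpl30 (234), Rpl26 (468) and Rpl34 (471). Each has a close copy elsewhere in the genome that was itself a row of the table with a much higher value. Rps27, a zinc-binding 40S protein, was listed at 4.37, 10.4 and 5.23 after vehicle and 15.7, 10.9 and 6.13 after doxorubicin, and its copy Rps27rt at 1953, 1775 and 1633 and at 1486, 2660 and 1830. The coding sequences of both are identical over all 255 bases, and 98.7% of the 31-base stretches of the Rps27 transcript occur in Rps27rt, so that reads cannot be assigned to one or the other there. Rps27 lies on chromosome 3 at 90212667 to 90213648, and Rps27rt on chromosome 9 at 114982366 to 114982739. The first 60 coding bases, the same in both, are shown to make this visible, without capitals because no base differs.
Rps27 and Rps27rt: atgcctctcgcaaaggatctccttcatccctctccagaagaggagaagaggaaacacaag

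Rpl26, whose protein sits near the exit tunnel, was the member with the most negative difference. It measured 157, 308 and 150 after vehicle and 84.6, 185 and 117 after doxorubicin, with a log2 difference of -0.66 (SE 0.36, adjusted p 0.221) and overlapping groups. Its copy Gm15772, on chromosome 5, holds 69.8% of the 31-base stretches of the Rpl26 transcript and measured 1745, 1431 and 1626 after vehicle and 1543, 2209 and 1840 after doxorubicin. With the copy added, the difference of Rpl26 was 0.12, the opposite sign. Rpl30, likewise, went from -0.39 alone to 0.02 with Gm12191 added, Rpl34 from 0.01 to 0.35 with Rpl34-ps1, and Rps27 with Rps27rt stood at 0.12. Gm12191 holds 33.5% of the 31-base stretches of Rpl30, and Rpl34-ps1 holds 44.1% of those of Rpl34. Adding these copies was chosen after the values were seen. With all 4 summed, the members' median was 0.008, and the counts of members higher or lower in every doxorubicin library stayed at 1 and 3. Close copies were common in the family: 35 of the 77 members had at least 1 other gene holding 50% or more of their 31-base stretches, and for 4 of the 77, Rpl14, Rpl26 and Rps27 among them, such a gene was a row of this table. Rpl30 and Rpl34, whose copies hold less than 50%, are not among these 4. Rpl3 has 3 other genes that hold 50% or more, none of them a row of the table.

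**Figure D4:**
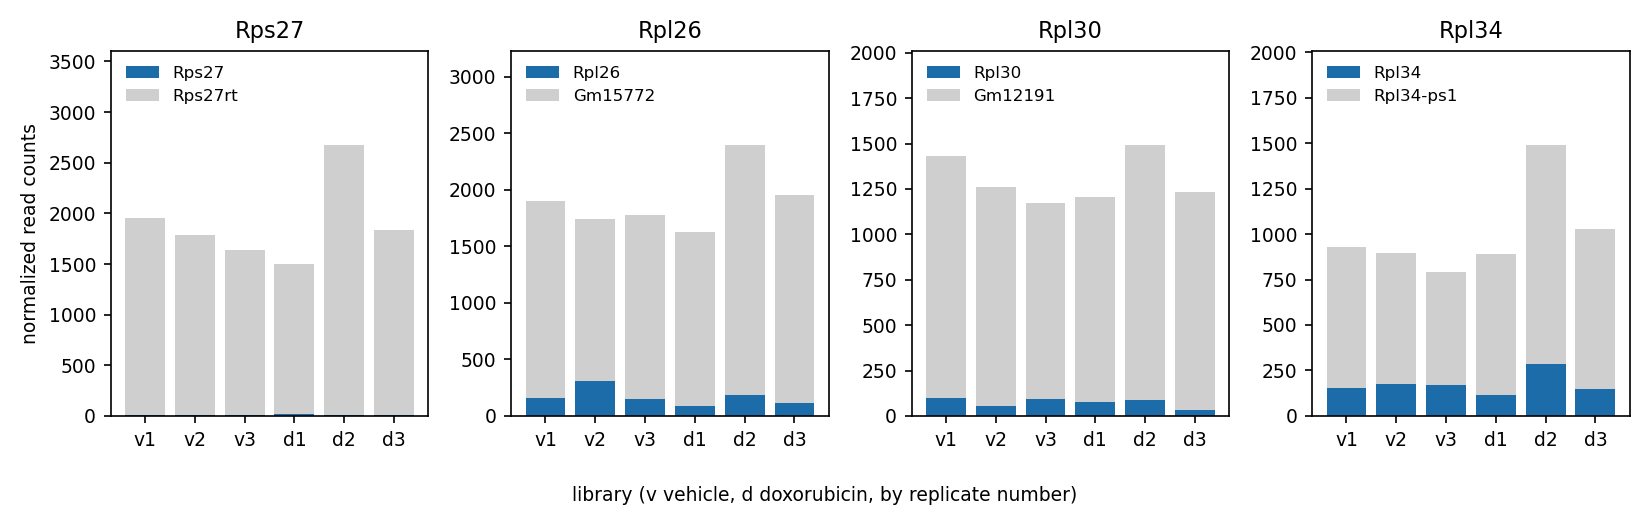
Stacked normalized read counts (y axis, from 0) of Rps27, Rpl26, Rpl30 and Rpl34 (blue) and of the copy row of each (grey) in the 3 vehicle (v) and 3 doxorubicin (d) libraries. The copy holds most of the signal in every library, and the sums of the groups overlap for all 4 pairs.

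Other members are given by their roles. The stalk that recruits translation factors is built of Rplp0, Rplp1 and Rplp2. Rplp0, a common reference gene for quantitative PCR, measured 7421, 6317 and 5788 after vehicle and 5384, 7424 and 4023 after doxorubicin. Its lowest and its highest value were both in the doxorubicin group, and the log2 difference was -0.25 (SE 0.28, adjusted p 0.535). Rplp1 (-0.12) and Rplp2 (-0.15) overlapped as well. Rpl5 and Rpl11, which with 5S rRNA form a particle that binds Mdm2 when ribosome assembly is disturbed, had differences of -0.12 and -0.03. In doxorubicin replicate 3 the median of the stalk genes was -0.54, below the family's -0.18, and that of the 5S particle genes was -0.24.

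Of the 21 members mutated in Diamond-Blackfan anaemia, 20 were tested, with a median of -0.043 and 7 positive, and 0 were higher or lower in every doxorubicin library. The 9 genes around the exit tunnel had a median of -0.034, and 1 of them, Rpl23a, was lower in every doxorubicin library. The 4 X-linked members (Rpl10, Rpl36a, Rpl39 and Rps4x) all had positive differences, between 0.07 and 0.21, which all turned negative without doxorubicin replicate 2 (-0.02 to -0.09), and all overlapped between the groups. Rps6, the target of the S6 kinases, measured 3354, 2991 and 2875 after vehicle and 2657, 4608 and 2970 after doxorubicin (0.11). Differences of Rps14 (0.11), Rpl13a (0.14), Rpl22 (-0.11), Rpl23 (-0.11), Rpl38 (-0.03), Rps3 (-0.005) and Rps27a (0.01), which is made as a fusion with ubiquitin, were all small, and the groups overlapped for each of these genes. Among ribosomal genes outside the rule, Fau, which encodes a 40S protein as a fusion, stood at 0.36, and Rack1, a scaffold on the 40S subunit, at -0.03.

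The genes that supply and use ribosomes were compared as lists, described by counts since no list was tested. For 18 other TOP mRNAs, most of translation factors (not Tpt1, Npm1, Nap1l1 and Hnrnpa1), the median was -0.08, near that of the members. In this list 1 gene (Eef1a1) was higher and 3 were lower in every doxorubicin library. These are shares of 5.56% and 16.7%, against 19.2% and 22.6% of all genes tested. Elongation factor Eef2 stood at 0.16 (overlapping), and Pabpc1, the poly(A)-binding protein, at 0.57 (adjusted p 0.117). Of 32 other translation factors the median was -0.21, with 0 higher and 13 (40.6%) lower in every doxorubicin library. The shares of all genes tested were again 19.2% and 22.6%. Most of these 32 factors had a mean of at least 300. Among the 4364 genes of that level, 17.05% were higher and 34.97% lower, with a median of -0.15. The 40.6% and the median of -0.21 thus lay nearer to the values of that level than to those of all genes tested. Eif4e, which binds the mRNA cap, measured 1157, 1313 and 1332 after vehicle and 886, 482 and 531 after doxorubicin, all lower (log2 difference -1.05, adjusted p 0.0859). Eif3j1 was listed at 0 in 5 of the 6 libraries.

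Among 62 ribosome assembly factors the median was -0.12, with 2 higher and 16 (25.8%) lower in every doxorubicin library, the latter near the 22.6% of all genes. Nop10, of the pseudouridylation particle, had -0.68, Pno1, of the 40S precursor, -0.67, and Wdr12, of the 60S precursor, -0.67, whereas Sbds, which releases Eif6 from the 60S subunit, had 0.56. For RNA polymerase I and its factors, which make ribosomal RNA, the median of 15 genes was -0.10. Polr1e, a polymerase subunit, measured 137, 145 and 148 after vehicle and 65.2, 56.5 and 75.2 after doxorubicin, with a log2 difference of -1.12 (SE 0.17, adjusted p 0.0859 by limma) and the lowest vehicle value well above the highest doxorubicin value. Rrn3, the initiation factor that links the polymerase to its promoter, had -0.74, and Ttf1, the termination factor, 0.55. In the mTORC1 list of 27 genes the median was -0.18, with 1 higher and 7 (25.9%) lower in every doxorubicin library, the latter also near the 22.6% of all genes. Ddit4, a stress-induced inhibitor of mTORC1, measured 275, 199 and 122 after vehicle and 290, 1737 and 1425 after doxorubicin (2.25, adjusted p 0.0859). Its doxorubicin replicate 1 was close to the highest vehicle value. Larp1b, a relative of Larp1, had -1.20 and Larp1 itself -0.37.

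The other ribosome of the cell served as a contrast. Of the 78 mitochondrial ribosomal protein genes, which are encoded in the nucleus, all 78 had negative differences, with a median of -0.79, and 72 (92.3%) were lower in every doxorubicin library, against 3 of 76 members and 22.6% of all genes. Their medians were -0.39, -0.72 and -1.20 in doxorubicin replicates 1 to 3, below 0 in each library, whereas the cytosolic members lay on either side of 0. Mrps28 had the most negative difference (-1.26) and Mrpl24 the least (-0.14). The median difference of the cardiomyocyte markers was -1.49, and its part in the contrast between the 2 families was not tested.

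**Figure D5:**
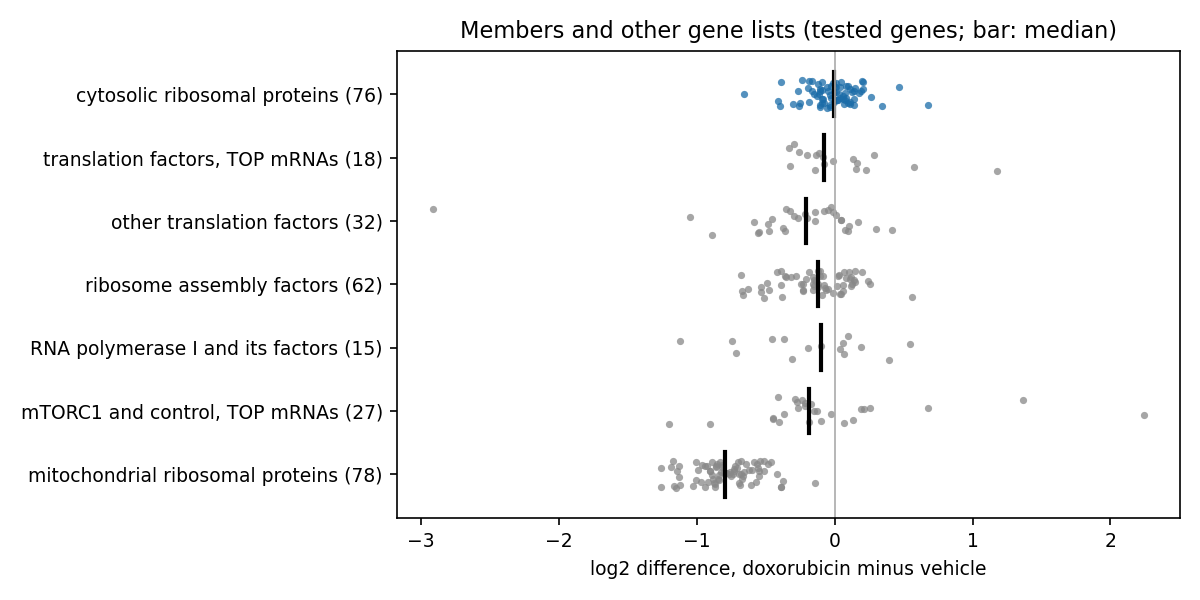
Log2 difference, doxorubicin minus vehicle (x axis), of each tested gene (points) in the cytosolic ribosomal proteins and 6 related lists (y axis, number tested in brackets), with a bar at each median. The cytosolic members centre on -0.006 and the mitochondrial ribosomal proteins on -0.79; the point at the far left is Eif3j1, listed at 0 in 5 libraries.

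Promoter sequences were available for 57 of the 77 members (RefSeq, GRCm38.p6), and Rpl3 was not among them. A C at the annotated first base followed by 4 pyrimidines was found in 12 of 57 (21.1%) against 2.49% of 27025 promoters. This count depends on the exact annotated base. Rpl13a, with a run of 14 pyrimidines near the start, did not meet it. Whether the annotated starts are those used in these cells was not tested. A run of 8 or more pyrimidines within 5 bases of the start was found in 33.3% against 9.63%. The median longest run was 5 bases for members and 3 for all promoters. Other motifs were searched on both strands in windows from 250 bases before to 50 after the start. CCGGAAG, which ETS factors bind, was in 38.6% against 9.12%, GGGCGG, bound by Sp1, in 59.6% against 35.9%, AAGATGG, the core of the YY1 site, in 14.0% against 6.48%, and TATAA in 26.3% against 25.5%. CCGGAAG and AAGATGG share the bases AAG and can overlap. The start features were thus at a higher share in members than in promoters at large, and TATAA at nearly the same share. Median log2 differences of the members with and without each feature lay between -0.033 and 0.040. The C with 4 pyrimidines gave -0.03 in the 11 tested members that have it at the annotated start and -0.005 in the 45 that do not, a split with the same limit.

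Promoters of 6 members are shown around the start, from 45 bases before it to the first 15 transcribed bases. Capitals mark the longest pyrimidine run that reaches within 5 bases of the start, on either side of it. Rpl35 and Rpl15 show a long run that spans the start, and were picked after the runs were counted. Rps2 has the highest level, Rps19 the most positive difference among members with a promoter in the table, Rpl26 the most negative, and Rplp0 is the reference gene described above. The positions are chr2:39005117-39005176 (minus strand) for Rpl35, chr14:18270972-18271031 (minus strand) for Rpl15, chr17:24720018-24720077 for Rps2, chr7:24884547-24884606 for Rps19, chr11:68901521-68901580 for Rpl26 and chr5:115559422-115559481 for Rplp0, the last 4 on the plus strand.
Rpl35: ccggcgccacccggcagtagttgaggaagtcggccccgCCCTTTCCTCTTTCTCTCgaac
Rpl15: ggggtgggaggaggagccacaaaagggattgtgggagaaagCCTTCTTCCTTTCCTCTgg
Rps2: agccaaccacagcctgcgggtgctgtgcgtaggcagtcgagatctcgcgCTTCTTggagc
Rps19: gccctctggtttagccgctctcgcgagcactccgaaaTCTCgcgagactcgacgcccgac
Rpl26: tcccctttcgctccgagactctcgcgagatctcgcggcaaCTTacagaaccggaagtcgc
Rplp0: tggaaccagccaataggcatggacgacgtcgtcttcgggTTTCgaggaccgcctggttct
The runs of Rps19 and Rps2 are 4 and 6 bases long, against 18 in Rpl35 (log2 difference -0.03) and 17 in Rpl15 (-0.16). Only the runs of Rpl35 and Rpl15 span the start. Those of Rps19, Rpl26 and Rplp0 end before it, and that of Rps2 begins after it.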

How the data were processed

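Per the labels' protocols, BaseSpace applications aligned the reads of each mouse to mm10 with RefSeq genes using STAR (2.6.1a, per the submitters' processing notes, which also name Salmon). The sources used here do not state strand or counting tool. The deposited values are a signal, normalized read counts per gene by the authors. A median-of-ratios factor computed on them was 1.0059 in all 6 libraries. Values were used as deposited; log2(value + 1) of genes with a mean of at least 10 was tested with limma 3.58.1 in R 4.3.3 (trended empirical Bayes, two-sided), with Benjamini-Hochberg adjustment over 12477 genes and a threshold of 0.05; the fold change understates low genes. The test was checked on simulated data with equal spread in both groups. The doxorubicin libraries here were less alike than the vehicle libraries, so the check does not give the power in these data. SD is over 3 libraries. Members and lists were chosen with earlier results of these data known. Genes named were the 5 members with the most positive and most negative differences, the smallest p, the 3 highest and lowest means, a fixed set of members and, per list, those with the largest differences; Rpl35, Rpl15, Rpl41, Rps29, Rpl34, Larp1, Eif3j1, Pabpc1, Mrps28 and Mrpl24 were added after values were seen. Coding lengths and 31-base matches came from GENCODE M21 transcripts (GRCm38), promoters and coordinates from RefSeq GRCm38.p6, counted from 1. Replicate numbers did not pair samples: deviations of same-numbered libraries correlated at -0.128, 0.033 and -0.093. Motifs were counted with Python 3.11.15 and coding sequences aligned with Biopython 1.88. Protein sequences were not used here. The single values of 1 member and 1 related gene are not reported here. The start element was read on the gene's own strand only.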

Additional observations from a re-analysis of the deposited data

How the results depend on the processing

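Alternatives were another pseudocount (0.5 or 8), another minimum mean (none or 50), equal library totals, quantile normalization, fits without trend, with robust estimation or with library weights, a replicate block, a term for Xist or Y-linked class, a correction for length and GC, a threshold of 0.10, leaving out each library and, chosen after seeing the data, summing 4 members with their copies. In the replicate block (paired) fit 0 members passed and the median was -0.006, as in the reported fit. The number of all genes passing was 0 as reported, 4272 with library weights, 3022 at 0.10 and 0 to 5127 on leaving out a library (5127 without doxorubicin replicate 1). Members passing were 2 with library weights (Rpl3 and Rps19), 1 at 0.10 and 0 to 2 on leaving out a library. Scaling to equal totals put the members' median at 0.30, where that of all genes was 0.29; quantile normalization put them at 0.19 and -0.02, and the length and GC correction at 0.10 and -0.04. Members higher in every doxorubicin library, 1 as reported, were 11 with equal totals, 11 with the length and GC correction, 10 with quantile normalization and 1 to 6 on leaving out a library. Members lower in every doxorubicin library, 3 as reported, were 0 with equal totals, 0 with quantile normalization and 3 to 43 on leaving out a library, the 43 without doxorubicin replicate 2. Shares of all genes under these alternatives are not given here, so these counts have no background beside them. The 40S minus 60S gap of 0.05 was 0.10 with the class term and 0.043 to 0.097 on leaving out a library. The differences of Rpl3 (0.53 to 0.98) and Rpl3l kept their signs under each alternative run. The cause was not tested. The doxorubicin libraries have the lowest depth, which limits the rarest members most.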
